A study of Mus musculus with 34 samples.

Results

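Histone genes encode the proteins around which DNA is wound, and their transcripts were followed here across 27 small molecules in N2A cells, a mouse neuroblastoma line. The genes were chosen by symbol, as every gene named for one of the histone clusters (Hist1 to Hist4) plus H1f0, H1fx, H2afx, H2afy, H2afz, H2afv, H2afj, H3f3a and H3f3b, with pseudogenes left out. This gave 77 of the 52661 genes in the expression table. Of these, 68 lie in the clusters (6 H1, 19 H2A, 18 H2B, 12 H3 and 13 H4 genes) and 9 are single genes for variants. Cluster 1 holds 55 of the 68, cluster 2 holds 10, cluster 3 holds 2 and cluster 4 holds 1.

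The compounds had come out of a luciferase reporter screen for modulators of a neuronal microexon of Mef2d, and N2A cells were exposed to each for 24 h in 0.4% DMSO, at concentrations that differed between compounds. The 17 activators of microexon inclusion comprise 4 inhibitors of histone deacetylases (HDACs), namely BRD4884, BRD6688, CI-994 and Vorinostat, and 13 others. These others are the AKT1 inhibitor A-443654, the IGF1R inhibitor NVP-AEW-541, the MEK inhibitor Trametinib, the PDGFR inhibitor Crenolanib, the ERK inhibitor SCH-772984, the TRK inhibitor GNF-5837, and BTB12021, RDR00572, S02045, RH01954, BTB13120, BTBS00065 and SEW06315. The 10 inhibitors of inclusion are 5-azacytidine, which inhibits DNA methyltransferases, the WEE1 inhibitor MK-1775, AW00693, SPB00858, JFD00822, T5635931, T5758020, T5963258, T5985871 and a compound from the ChemBridge collection (the ChemBridge inhibitor). PolyA+ RNA was sequenced in 34 libraries, 3 for DMSO alone, 2 for each HDAC inhibitor and 1 for each of the other 23 compounds. All cells were of 1 established line. The study calls the DMSO and HDAC inhibitor libraries biological replicates of treatment, and p-values between libraries measure the spread between such treatments of that line.

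The clustered genes are replication-dependent: they are transcribed in S phase, when new DNA needs new histones, and most of their mRNAs end in a conserved stem-loop in place of a poly(A) tail. The stem-loop is bound by SLBP, and the end is cut by a complex that contains the U7 RNA with Lsm10 and Lsm11 and shares Cpsf2, Cpsf3 and Sympk with ordinary polyadenylation. The single variant genes are in general transcribed throughout the cell cycle, carry introns in most cases and give polyadenylated mRNA. H2afx is an exception among them, since its annotated transcript holds the stem-loop. H3f3a and H3f3b encode the replacement histone H3.3, H2afz and H2afv encode the H2A.Z proteins, H2afx encodes the H2A.X that is phosphorylated at DNA breaks, H2afy encodes macroH2A1, H2afj an H2A variant, and H1f0 and H1fx encode replacement linker histones. Since polyA+ selection retains tailed RNA, the values of clustered genes cover the tailed or otherwise retained share of their transcripts and not the whole pool. The same may hold for H2afx.

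Each library held between 17702718 and 40613524 counted reads over exon junctions (median 26332957.5). The DMSO libraries correlated with each other across genes at r between 0.9963 and 0.9973, and the 2 Vorinostat libraries stood further apart than any other replicate pair (r = 0.9864, median absolute log2 difference 0.2353 against 0.0832 to 0.1046 elsewhere). Sympathetic neuroblast markers were present in DMSO, with Hand2 at 247.51, Phox2a at 78.92 and Tubb3 at 395.99 RPKM (reads per kilobase of transcript, scaled to the depth of the library), while Th reached only 1.57 RPKM. Markers of other cell types were near 0 in DMSO, for example Ptprc at 0.06 and Col1a1 at 0.02 RPKM. Col1a1 stood at 11.67 RPKM with CI-994 and at 5.40 RPKM with Vorinostat.

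The stem-loop that defines a replication-dependent histone mRNA was searched for in the GENCODE vM21 transcripts of each gene (GRCm38), as a stem of 6 base pairs around a loop of 4 bases, 16 bases in all. With whole transcripts searched, it was found in 44 of the 68 clustered genes (64.71%) and in 1 of the 9 single genes (H2afx). Other protein-coding genes were searched only in the last 200 bases of each transcript, where 5 of 21825 held it (0.0229%). The shares therefore come from unlike searches. In 41 of the 44 clustered genes at least 1 annotated transcript ended more than 20 bases beyond the stem-loop. The sequences below show this element, in capitals, for clustered genes that the later results turn on and for the single gene that carries it.
Hist1h4n: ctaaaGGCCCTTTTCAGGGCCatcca
Hist1h2ap: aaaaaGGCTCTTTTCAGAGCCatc
Hist2h2aa2: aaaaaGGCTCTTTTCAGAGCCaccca
Hist3h2ba: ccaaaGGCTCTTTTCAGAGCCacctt
Hist1h1c: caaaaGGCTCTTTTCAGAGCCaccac
H2afx: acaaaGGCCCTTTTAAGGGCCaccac
These lie at chr13:21831793-21831818 on the minus strand for Hist1h4n, chr13:21833026-21833049 on the minus strand for Hist1h2ap, chr3:96246027-96246052 on the plus strand for Hist2h2aa2, chr11:58949344-58949369 on the plus strand for Hist3h2ba, chr13:23739507-23739532 on the plus strand for Hist1h1c and chr9:44335235-44335260 on the plus strand for H2afx. The annotated transcript ran on for 3 bases after the stem-loop in Hist1h2ap, 31 in Hist1h4n, 35 in Hist2h2aa2, 169 in Hist3h2ba, 840 in Hist1h1c and 822 in H2afx. The models of Hist1h2bc, Hist1h4k and Hist1h1a, which are among the clustered genes highest in DMSO, held no stem-loop, and that of Hist1h2bc had more than 1 exon. Some models without the element were short, at 312 bases for Hist1h4k, 393 for Hist1h2ai and 411 for Hist1h3i. A model that ends before the stem-loop cannot show it, so a missing match does not mean that the gene lacks it.

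Promoters were read from RefSeq (GRCm38.p6), from 250 bases before to 50 bases after each start, for the 62 clustered and 8 single genes that matched. The windows below show motifs long known from histone promoters, in capitals, in genes named later: the octamer ATTTGCAT of H2B genes, a TATAAA box and the CCAAT box.
Hist1h2bg: gagtcccttATTTGCATagaacctct
Hist1h4n: tcctttccaTATAAAaacctattg
Hist1h1a: tagcattcaCCAATcacagcaca
Hist1h3i: aaacgcggaCCAATcccctgtct
H2afz: ccccacgcgCCAATcatcgctcg
They lie at chr13:23571332-23571357 (plus strand) for Hist1h2bg, chr13:21832310-21832333 (minus) for Hist1h4n, chr13:23763603-23763625 (plus) for Hist1h1a, chr13:21783481-21783503 (minus) for Hist1h3i and chr3:137864398-137864420 (plus) for H2afz. With both strands read, CCAAT occurred in 53 of 62 clustered promoters (85.48%), including all 16 H2B promoters, in 5 of 8 single-gene promoters (62.5%) and in 41.06% of the 27025 promoters of all genes in the table. TATAAA occurred in 35 of 62 clustered promoters (56.45%), in 1 of 8 single-gene promoters and in 15.67% of all promoters. ATTTGCAT occurred in 14 of 62 clustered promoters (22.58%), in 7 of 16 H2B promoters (43.75%), in 1 of 8 single-gene promoters and in 1.97% of all promoters. Counted from the annotated start, the motifs shown begin at -59 in Hist1h2bg, -127 in Hist1h4n, -56 in Hist1h1a, -97 in Hist1h3i and -80 in H2afz. A match was counted at any place in the window, whatever its distance from the start. It is a run of letters and no measure of binding.

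Clustered genes are close copies of each other, and this limits how reads can be assigned. Of the 31-base words in a clustered gene's transcripts, a median of 38.97% occurred in no other gene, against 88.85% for the single genes. Among the single genes the share was lowest for H2afz, at 57.67%, and next lowest for H3f3a, at 70.03%. The share was below 50% in 42 of the 68 clustered genes and 0 in 5 of them. It was 12.5% for Hist1h4n, 7.99% for Hist1h2ai, 6.82% for Hist1h3i, 6.64% for Hist1h2ap and 0 for Hist2h2aa1 and Hist2h2aa2, against 66.55% for Hist1h2bc, 97.18% for Hist2h2be and 99.72% for Hist1h1a. Values of the first 6 of these genes are uncertain, since Salmon divides shared reads between copies by estimation. The libraries were not stranded, so overlapping antisense transcripts cannot be separated either.

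In DMSO the 9 single genes summed to 3527.82 RPKM and the 68 clustered genes to 124.21 RPKM. H3f3b was the highest at 1882.53 RPKM, 44th among all genes, followed by H3f3a at 671.92, H2afz at 560.59, H1f0 at 227.71, H2afy at 120.66, H2afx at 27.81, H2afv at 19.85, H1fx at 13.51 and H2afj at 3.24 RPKM. The highest clustered genes were Hist1h2bc, an H2B gene, at 14.51 RPKM, the linker histone gene Hist1h1c at 13.86, Hist3h2ba at 11.98, Hist1h4n at 11.63, Hist1h4k at 8.76, the linker histone gene Hist1h1a at 6.76 and Hist1h4i at 5.46 RPKM. These 7 were the only clustered genes above 5 RPKM in DMSO, 21 exceeded 1 RPKM and 6 were listed at 0, namely Hist1h1t, Hist1h2aa, Hist1h2ba, Hist1h4m, Hist2h2aa1 and Hist2h2ac. Hist1h2ba and Hist1h4m were at 0 in every condition. Over all 28 conditions, 36 clustered genes exceeded 5 RPKM at least once and 32 never did. RPKM was given once per condition, with replicates merged, so neighbours in this order cannot be set against a spread between DMSO libraries.

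**Figure D1:**
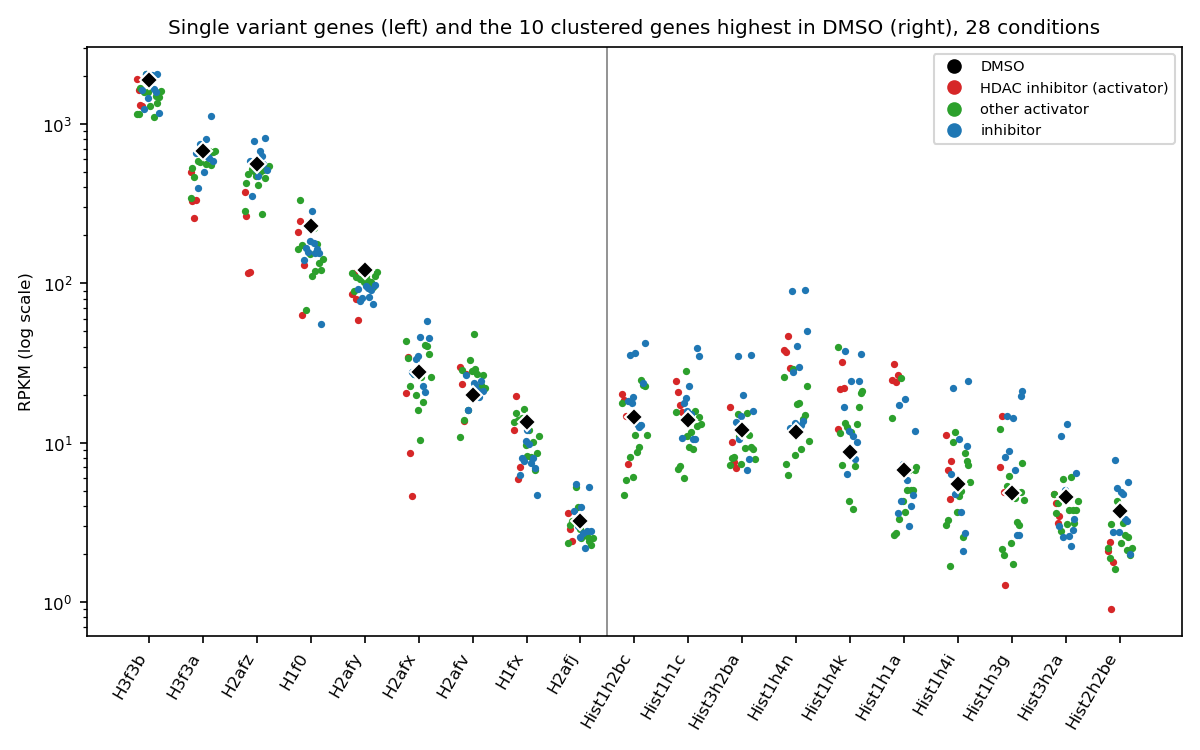
RPKM on a log axis of the 9 single variant genes (left) and the 10 clustered genes highest in DMSO (right), with 1 point for each condition: DMSO as a black diamond, HDAC inhibitors in red, other activators in green and inhibitors in blue. The single genes span from 3.24 to 1882.53 RPKM in DMSO, and the clustered genes shown lie between 3.70 and 14.51 RPKM there.

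Clustered histone transcripts summed to more than in DMSO with 17 of the 27 compounds. Over the 68 genes, RPKM was 124.21 in DMSO and 515.39 with MK-1775, 466.83 with T5985871, 456.93 with BTB13120, 406.35 with BRD6688, 364.73 with the ChemBridge inhibitor and 342.25 with JFD00822. The other HDAC inhibitors stood at 246.56 (CI-994), 231.96 (BRD4884) and 222.9 RPKM (Vorinostat), and NVP-AEW-541 at 212.22 RPKM. At the other end, the sum was 83.13 RPKM with Trametinib, 73.07 with BTBS00065 and 64.93 with SEW06315. The 3 compounds lowest in the sum are activators, and 4 of the 6 highest are inhibitors of microexon inclusion. With MK-1775, 60 of the 68 genes had a higher value than in DMSO and 4 a lower one, and with SEW06315, 6 were higher and 57 lower. In bulk RNA, fewer cells in S phase and less histone RNA in each cell cannot be told apart.

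**Figure D2:**
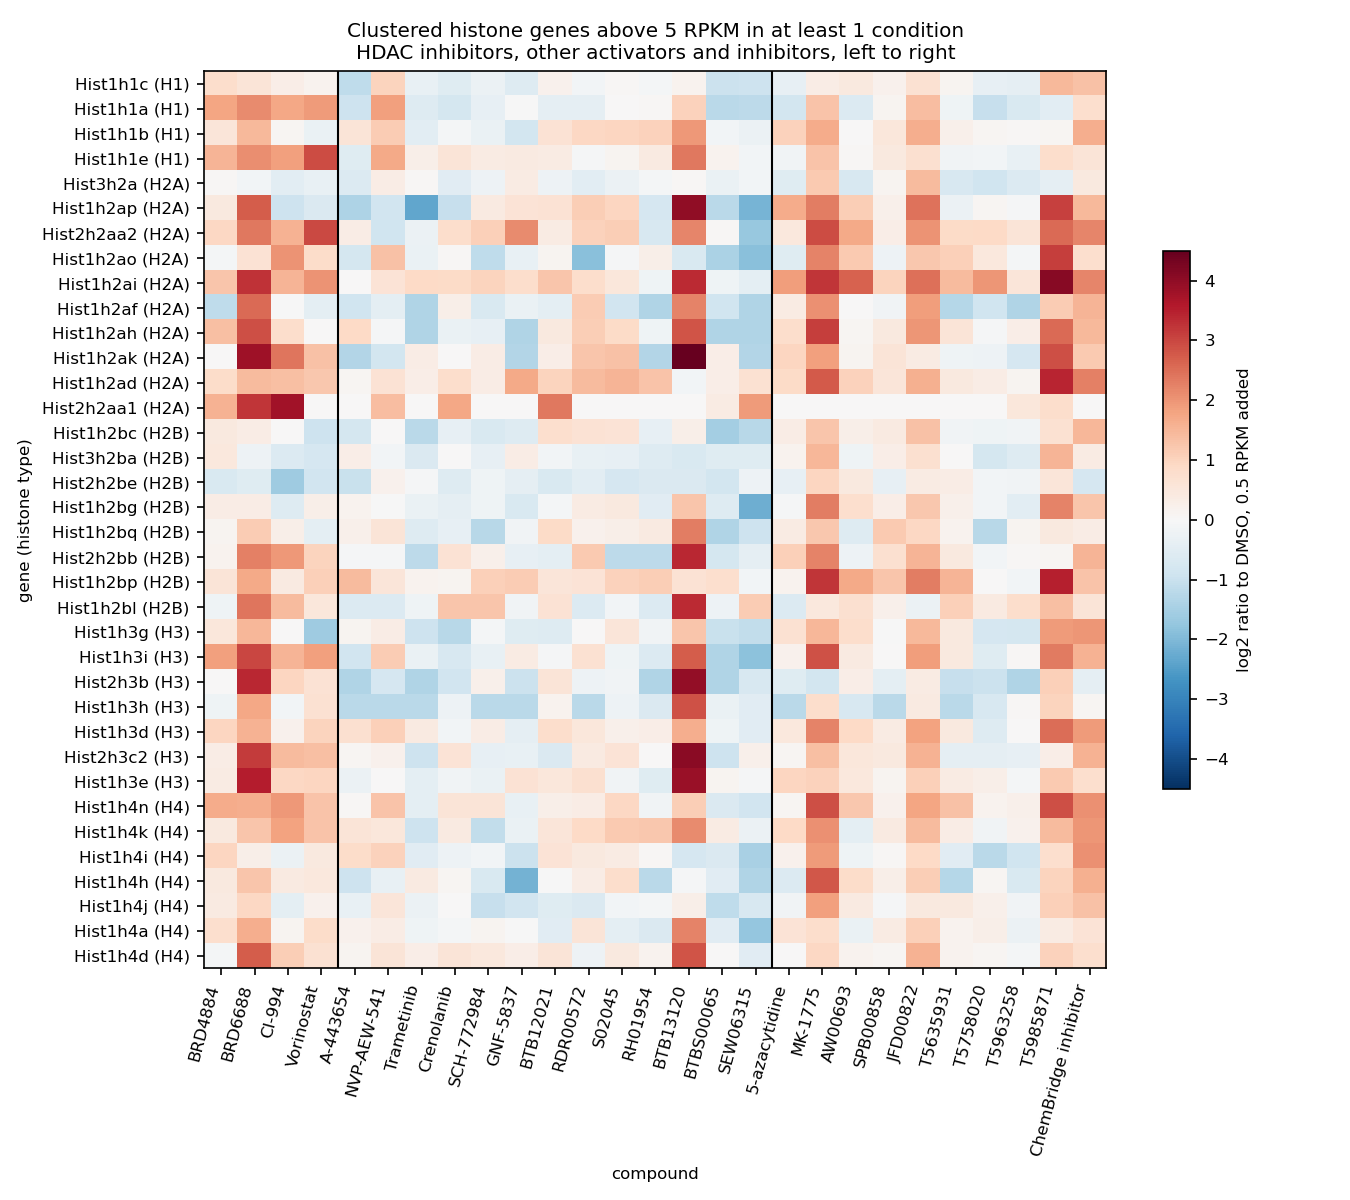
Log2 ratio to DMSO (0.5 RPKM added to each value) of the clustered genes that exceeded 5 RPKM in at least 1 condition (rows, with histone type) for the 27 compounds (columns), with lines separating the 4 HDAC inhibitors, the 13 other activators and the 10 inhibitors. Columns such as MK-1775, T5985871 and BTB13120 are red over most rows, and SEW06315 and BTBS00065 are blue.

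A gene was called with a compound where it differed more than 2-fold from DMSO (0.5 RPKM added to both) and exceeded 5 RPKM in either condition. With no replicate values of RPKM this carries no test. Among the 7 clustered genes above 5 RPKM in DMSO, which could be called in either direction, 40 of 189 gene and compound pairs were called higher and 10 lower. For all genes above 5 RPKM in DMSO, 1.12% of pairs were called higher and 4.0% lower. Clustered genes at or below 5 RPKM in DMSO gave 92 further calls upward and could give none downward, since they pass the level limit only where they are raised. Counting both, 132 pairs of clustered genes were called higher and 10 lower, beside 2.67% and 3.86% of the pairs of all genes.

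By compound, BTB13120 gave 22 of 26 clustered genes past the level limit called higher (2.93% of all genes). MK-1775 gave 19 of 21 (2.35%), BRD6688 16 of 20 (5.14%), T5985871 16 of 20 (6.05%), the ChemBridge inhibitor 13 of 16 (1.21%) and JFD00822 12 of 15 (1.04%). CI-994 gave 8 of 12 (10.2%), Vorinostat 6 of 10 (10.4%), NVP-AEW-541 5 of 11 (2.86%) and BRD4884 3 of 9 (5.29%). Apart from the 7 genes above 5 RPKM in DMSO, clustered genes passed the limit only where raised. The shares of all genes are therefore no like measure for these counts. SEW06315 gave the most clustered genes called lower, 3, beside 0.820% of all genes. In all, 35 of the 36 clustered genes above 5 RPKM in any condition were called higher with at least 1 compound. Outside the 7 they could pass the limit only where raised, and no like share over all genes is given. Of the 7 that could be called lower, 5 (Hist1h4k, Hist1h1a, Hist1h2bc, Hist1h4i and Hist1h1c) were called so with at least 1.

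Among the H1 genes, Hist1h1a stood at 6.76 RPKM in DMSO and at 24.6 with BRD4884, 31.4 with BRD6688, 23.9 with CI-994 and 26.8 with Vorinostat. The 23 other compounds ranged from 2.64 to 25.6 RPKM with a median of 5.05, and NVP-AEW-541 was the only one of them that reached the range of the HDAC inhibitors. Hist1h1a was called higher with 8 compounds and lower with BTBS00065, SEW06315 and T5758020. Hist1h1c, which ranged from 6.02 (A-443654) to 39.15 RPKM (T5985871), was called higher with 2 compounds and lower with 1. Hist1h1e stood at 0.48 RPKM in DMSO and at 2.3, 3.68, 3.02 and 6.95 RPKM with BRD4884, BRD6688, CI-994 and Vorinostat. Hist1h1b was highest with BTB13120, at 12.91 RPKM against 2.97 in DMSO, and the testis form Hist1h1t never exceeded 0.13 RPKM.

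The H2A genes were highest with BTB13120, where they summed to 130.5 RPKM against 14.95 in DMSO, and reached 116.12 with T5985871 and 97.03 with MK-1775. Hist1h2ap gave the highest single value, 52.34 RPKM with BTB13120 against 2.86 in DMSO, followed by 27.86 with T5985871 and 21.93 with BRD6688, and it was 1.25 with CI-994 and 1.62 with Vorinostat. Hist1h2ak reached 27.5 RPKM with BTB13120 and 17.2 with BRD6688 from 0.76 in DMSO. Hist1h2ai reached 22.17 RPKM with T5985871 from 0.84 in DMSO. Hist2h2aa1 and Hist2h2aa2, which have no 31-base word of their own, were at 0 and 1.82 RPKM in DMSO, at 6.29 and 6.38 with CI-994 and at 0 and 17.64 with Vorinostat. Hist3h2a, in cluster 3, stayed between 2.24 and 13.03 RPKM and was highest with JFD00822.

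For H2B, the sum was 38.86 RPKM in DMSO, 129.86 with MK-1775 and 19.3 with BTBS00065. Hist1h2bc, which carries most of it in DMSO together with Hist3h2ba, was 42.1 RPKM with the ChemBridge inhibitor, 36.6 with JFD00822 and 35.3 with MK-1775, and 4.69 with BTBS00065, 5.79 with SEW06315 and 6.05 with Trametinib. These were its 3 calls in each direction. Hist3h2ba was called higher with 2 compounds, T5985871 at 35.65 and MK-1775 at 34.75 RPKM. Hist2h2be was at 3.70 RPKM in DMSO and highest with MK-1775 at 7.80. Hist1h2bp reached 8.80 RPKM with T5985871 and 7.29 with MK-1775 from 0.33 in DMSO.

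The H3 genes summed to 13.77 RPKM in DMSO, 104.93 with BTB13120 and 96.07 with BRD6688. Hist1h3i was 3.61 RPKM in DMSO, 32.5 with BRD6688, 29.6 with MK-1775 and 26.8 with BTB13120, and was called higher with 10 compounds. Among the H3 genes, Hist2h3b, Hist2h3c2 and Hist1h3e exceeded 5 RPKM with BTB13120 and BRD6688 only. The H2A gene Hist1h2af and the H4 gene Hist1h4d did so too. The share of 31-base words found in no other gene was 0 for Hist2h3b, 35.76% for Hist2h3c2 and 15.63% for Hist1h3e, so their values are uncertain. Hist2h3b was 19.2 RPKM with BTB13120 and 13.1 with BRD6688, and at most 2.18 with the 25 others. Hist2h3c2 was 15.2 and 7.86 RPKM and Hist1h3e 11.7 and 8.89 RPKM with the same compounds. Hist1h3g, in contrast, was highest with the ChemBridge inhibitor, at 20.95 RPKM against 4.85 in DMSO.

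The H4 genes summed to 31.95 RPKM in DMSO and 178.48 with MK-1775. Hist1h4n was called higher with more compounds than any other histone gene, 12 of 27. Its level was 90.2 RPKM with T5985871, 89.1 with MK-1775, 50.3 with the ChemBridge inhibitor and 40.5 with JFD00822 against 11.63 in DMSO, and the HDAC inhibitors BRD4884, BRD6688, CI-994 and Vorinostat gave 38.3, 37.0, 46.9 and 29.4 RPKM. Hist1h4k ranged from 3.85 (SCH-772984) to 39.96 RPKM (BTB13120) and was called higher with 10 compounds and lower with 1. Hist1h4i ranged from 1.67 (SEW06315) to 24.52 RPKM (the ChemBridge inhibitor) and was called higher with 3 and lower with 2. Hist4h4, the only gene of cluster 4, was 0.27 RPKM in DMSO and never exceeded 1.48.

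Small RNAs that carry no poly(A) tail also differed between conditions, and they moved with the clustered genes in part. Rn7sk, the 7SK RNA that holds P-TEFb inactive, stood at 49.07 RPKM in DMSO and more than 10-fold higher with 4 compounds, at 1842.46 with CI-994, 1082.88 with BTB13120, 923.33 with BRD6688 and 824.05 with Vorinostat, but at 45.19 with BRD4884. Rnu1a1, a U1 spliceosomal RNA, was 29.11 RPKM in DMSO, 669.68 with T5985871, 155.05 with MK-1775 and more than 2-fold higher with 9 compounds, which were CI-994 and 8 of the 10 inhibitors. Without the 4 compounds with Rn7sk more than 10-fold up, 80 of the 132 upward calls of clustered genes were left, and without those or any with Rnu1a1 more than 2-fold up, 15 were left, which came from 7 of the 15 remaining compounds. The downward calls numbered 10 and 8. Leaving these compounds out removes calls of all genes too. Of the 7032 upward calls of all genes, CI-994 gave 1047, Vorinostat 1059, BRD6688 513 and BTB13120 285. T5985871, left out in the second step, gave 596. The fall is therefore no trait of clustered genes alone. T5758020 and T5963258 had Rnu1a1 more than 2-fold up and no clustered gene called higher, and NVP-AEW-541 had 5 with neither RNA past its limit. Over the 28 conditions the log2 of the summed clustered RPKM correlated with that of Rnu1a1 at r = 0.607 (Spearman 0.627), of Rn7s1, the RNA of the signal recognition particle, at 0.636 (0.622), of Rn7sk at 0.519 (0.516), of the S-phase gene Pcna at -0.348 (-0.407) and of Slbp at -0.14 (-0.258). All conditions were scaled against the same kind of total, these values are a description, and the part of untailed RNA in the clustered levels was not tested. The list of small RNAs and both fold limits were chosen after the data were seen.

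**Figure D3:**
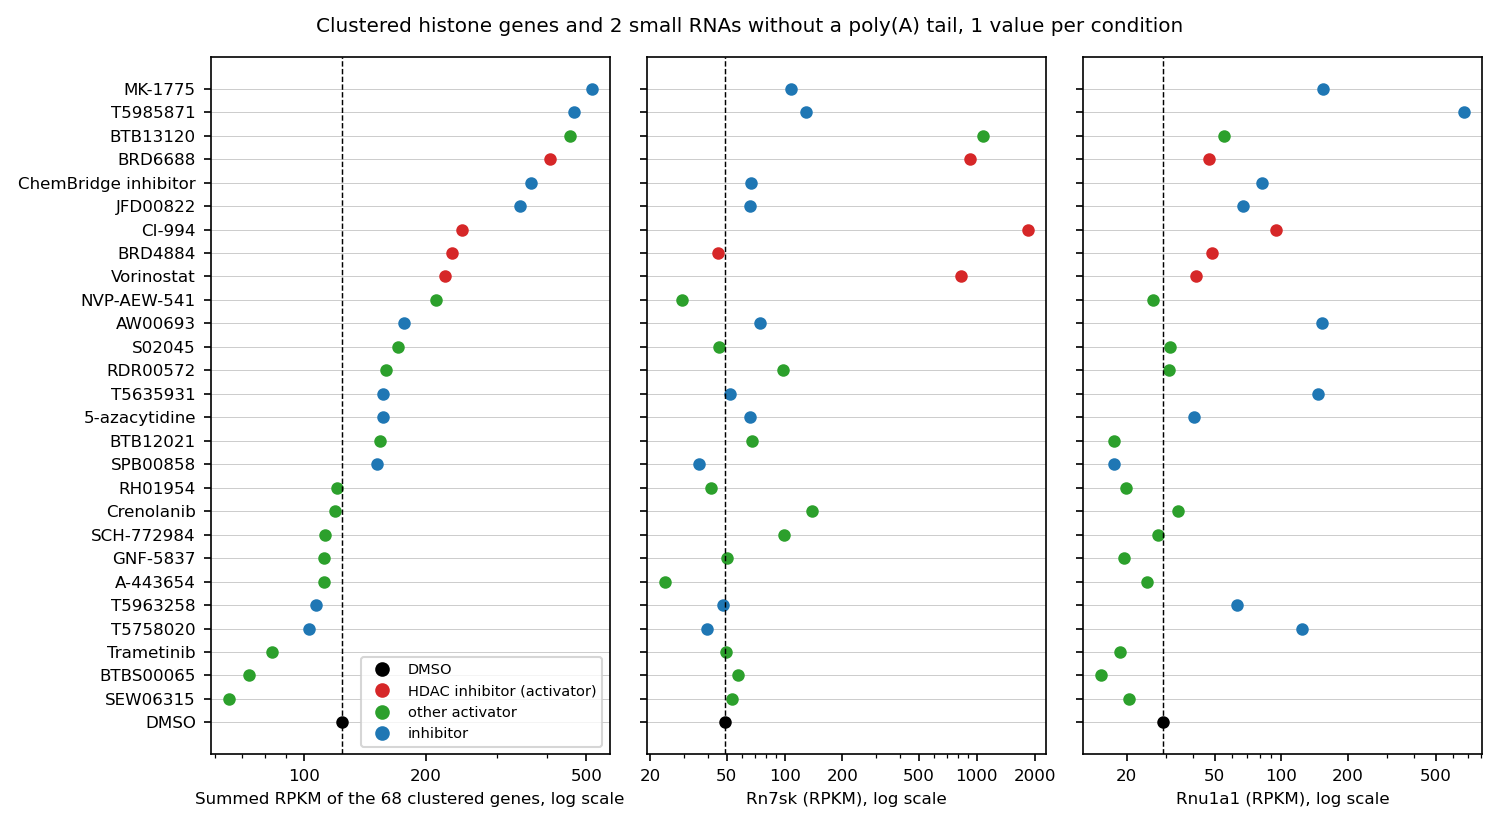
Summed RPKM of the 68 clustered genes (left), Rn7sk (middle) and Rnu1a1 (right), each on its own log axis, with 1 point per condition and a dashed line at DMSO. MK-1775 has the highest clustered sum (515.39) with Rn7sk at 107.45 RPKM, and BTB13120 has the third highest (456.93) with Rn7sk at 1082.88 RPKM.

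To ask what the HDAC inhibitors share, their 4 values were compared with the 23 other compounds by limma on log2(RPKM + 0.5), in a fit across 12403 genes. Compounds serve as replicates of a class here, each HDAC inhibitor value pools 2 libraries against 1 for the others, and fold changes of low genes are understated on this scale. Of 44 histone genes tested, 5 were higher with HDAC inhibitors and 4 lower (adjusted p below 0.05), beside 17.2% and 35.6% of all genes, and 11 had an unadjusted p below 0.05. The shares of histone genes were therefore below those of all genes in both directions. The median gene was lower by -0.17 on the log2 scale. After centring on it, 9 histone genes were higher and 3 lower, and among all genes the split moved from 2131 higher and 4411 lower to 3415 and 3010.

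Linker histone and H3 genes made up the higher side. Hist1h1a was 4.10-fold higher with HDAC inhibitors (log2 2.04, SE 0.42, limma adjusted p = 0.000183), with a lowest value of 23.94 RPKM against a median of 5.05 for the others. Hist1h1e was 3.25-fold higher (log2 1.70, SE 0.34, adjusted p = 0.000149), with 3.35 against 0.77 RPKM at the median, although BTB13120 (4.59 RPKM) and NVP-AEW-541 (2.70 RPKM) lay within the range of the HDAC inhibitors. Its mean over the 23 other compounds was 0.963 RPKM, so that it passed the filter (a mean of at least 1 RPKM over all 27) only through the HDAC inhibitors, and with no filter its adjusted p was 0.000449. Both calls held with each HDAC inhibitor left out. Hist1h3i differed by 1.71 (adjusted p = 0.0199), which was lost without BRD6688 (adjusted p = 0.0951). Hist2h3c1 differed by 0.89 (adjusted p = 0.0139), lost without Vorinostat (0.059), and Hist2h3b by 1.62 (adjusted p = 0.0282), lost without BRD6688 (0.25) or CI-994 (0.0541). These 2 genes were named after their values were seen, and neither has a 31-base word of its own, so their levels are uncertain.

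The lower side held 3 variants and 1 clustered gene. H2afz stood at 372.72 RPKM with BRD4884, 264.71 with BRD6688, 115.78 with CI-994 and 118.05 with Vorinostat, and the 23 others lay between 273.28 and 812.55 with a median of 515.2, so that 3 of the 4 fell below every other compound. Its difference was -1.38 on the log2 scale (SE 0.24, limma adjusted p = 3.16e-05). H3f3a differed by -0.82 (adjusted p = 0.000549), again with 3 of the 4 below all others, and both held with each HDAC inhibitor left out. H3f3b, which encodes the same protein as H3f3a, differed by -0.03 (adjusted p = 0.89), with 1306.79 RPKM for CI-994 and 1906.04 for BRD4884 inside the range of the others, and H1f0 by -0.10 (adjusted p = 0.808). H2afx differed by -1.09 (adjusted p = 0.0102). That call was lost without CI-994 (0.0704), without Vorinostat (0.158) and in a rank sum permutation test over compounds (0.117), and its 2 lowest values, 4.64 with Vorinostat and 8.6 with CI-994, stand beside 34.62 RPKM with BRD6688. Hist2h2be differed by -0.69 (adjusted p = 0.0278), and the call was lost after centring (0.154) and without CI-994 (0.196), Vorinostat (0.0575) or the filter on low values (0.0528). H2afy came past the threshold only without BRD6688 (adjusted p = 0.0126).

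The 13 other activators were set against the 10 inhibitors in the same fit. Of the 44 genes, 1 was higher in the activators and 8 lower, beside 9.25% and 10.2% of all genes, and 19 had an unadjusted p below 0.05. H1fx was the higher one, by 0.46 (limma adjusted p = 0.0383), at a median of 11.03 against 7.795 RPKM. Hist1h2bc was lower in the activators by -0.87 (adjusted p = 0.036), at a median of 11.09 against 18.73 RPKM, with 8 of the 13 activators below every inhibitor. Hist1h4n was lower by -1.07 (0.0363), Hist1h3g by -0.99 (0.0452), Hist2h2be by -0.57 (0.0273) and Hist1h2ai by -1.44 (0.0171). Also lower, and named after their values were seen, were Hist1h4j (-0.92, adjusted p = 0.0123), Hist1h2ao (-1.43, 0.019) and Hist1h2bg (-0.98, 0.0471). Without the filter on low values, Hist1h4j was the only one of the 9 that stayed past the threshold, and a rank sum permutation test over compounds left 4 of the lower genes. Of 9 small RNAs without a poly(A) tail tested, 5 were lower in the activators as well (median of the 9, -1.55), and their part in the difference was not tested.

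Against DMSO the single variant genes were called lower more often than higher. Of 219 pairs that passed the level limit, 18 were lower and 2 higher. Since 8 of the 9 genes exceeded 5 RPKM in DMSO, the like shares are those of all such genes, 4.0% lower and 1.12% higher. Over all pairs past the limit they were 3.86% and 2.67%. HDAC inhibitors gave 11 of the 18. Of the 10144 downward calls of all genes, 442 came with BRD4884, 674 with BRD6688, 2690 with CI-994 and 2293 with Vorinostat. CI-994 gave 5 of 8 genes called lower, beside 26.1% of all genes, and Vorinostat 4 of 8, beside 22.5%. H2afz, at 560.59 RPKM in DMSO, was called lower with BRD6688, CI-994, Vorinostat and GNF-5837 (273.28 RPKM). H3f3a, at 671.92 RPKM in DMSO, was called lower with BRD6688 (326.03), CI-994 (256.83) and Vorinostat (334.08). Its sister gene H3f3b ranged from 1109.6 to 2064.18 RPKM and was called with no compound.

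H1f0, known for accumulating in differentiating and quiescent cells, was 227.71 RPKM in DMSO and was called lower with 4 compounds of different kinds, the ChemBridge inhibitor (55.21), CI-994 (63.44), A-443654 (68.25) and Crenolanib (111.08). It was highest with BTBS00065, at 334.42 RPKM. H1fx was called lower with CI-994 (5.91), 5-azacytidine (6.24) and the ChemBridge inhibitor (4.69). H2afx was 27.81 RPKM in DMSO, called lower with Vorinostat (4.64), CI-994 (8.6) and Crenolanib (10.41) and higher with T5985871 (58.2). H2afv was called higher with Crenolanib, at 48.13 against 19.85 RPKM, H2afy lower with Vorinostat, at 58.59 against 120.66 RPKM, and H2afj, between 2.17 and 5.52 RPKM, with none. The median gene itself lay below DMSO by -0.44 with CI-994 and -0.36 with Vorinostat on the log2 scale. After centring on that median, 10 of the 18 downward calls were left, and all 3 of H3f3a, with ratios of -0.86, -0.95 and -0.65, were among those lost. H2afz kept its calls with CI-994 and Vorinostat.

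**Figure D4:**
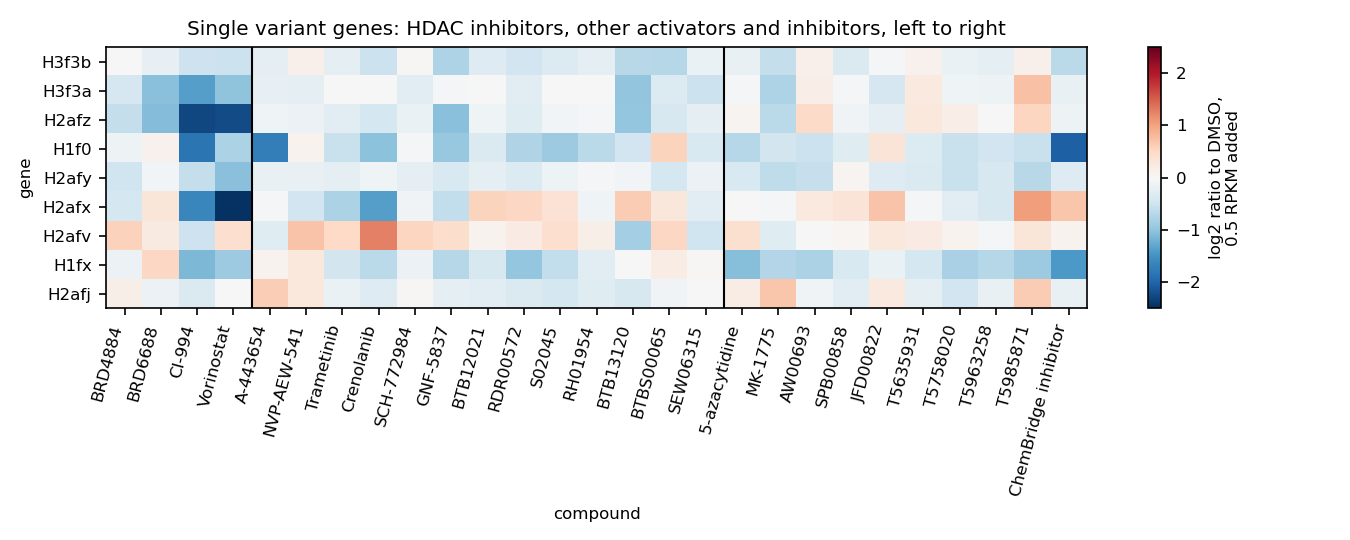
Log2 ratio to DMSO (0.5 RPKM added) of the 9 single variant genes (rows) for the 27 compounds (columns). H2afz is darkest blue with CI-994 (115.78 RPKM) and Vorinostat (118.05 RPKM), and the H3f3b row is pale throughout.

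Exon-junction reads from the splicing table gave the only values per library, and so the only error for DMSO. The introns of 3 histone genes, Hist1h2bc, H2afv and H2afy, could be counted, and H2afz was added through its alternative 3′ splice site after the data were seen. Values are junction reads of a gene per 1000000 junction reads of the library (RPM), tested by limma across 10448 genes, where single libraries are assumed to vary like the replicated ones. Over the 27 compounds, the first 3 genes gave 16 pairs higher than DMSO and 11 lower of 81 (adjusted p below 0.05), beside 13.5% and 12.1% of the pairs of all genes. For the mean of the HDAC inhibitors against DMSO, 43.0% of all genes were higher and 34.5% lower.

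H2afz had 20.58, 24.55 and 26.03 RPM of junction reads in the DMSO libraries. The replicates were 24.58 and 23.54 with BRD4884, 14.84 and 17.5 with BRD6688, 7.06 and 8.74 with CI-994, and 10.73 and 5.67 with Vorinostat. All libraries of BRD6688, CI-994 and Vorinostat lay below the DMSO range, and those of BRD4884 inside it. In RPKM, which is not tested against DMSO, H2afz with BRD4884 was 0.665-fold, while its junction reads were 1.02-fold. The mean of the HDAC inhibitors differed from DMSO by -0.89 on the log2 scale (95% interval -1.22 to -0.57, limma adjusted p = 9.87e-05), and by compound the fold was 0.347 with CI-994, 0.345 with Vorinostat and 0.689 with BRD6688 (adjusted p = 0.0318). T5985871 was the only compound with H2afz higher (49.77 RPM, 2.09-fold, adjusted p = 0.00335).

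H2afv had 21.74, 22.66 and 20.69 RPM of junction reads in DMSO, and 42.83 and 42.23 with BRD4884, 32.3 and 37.39 with BRD6688, 23.66 and 21.09 with CI-994, and 38.36 and 26.1 with Vorinostat. The mean of the HDAC inhibitors was higher by 0.55 (95% interval 0.32 to 0.78, limma adjusted p = 0.000283), with all libraries of BRD4884, BRD6688 and Vorinostat above the DMSO range and the CI-994 pair just above it and inside it. It was higher with 8 compounds, led by Crenolanib (54.91 RPM, 2.5-fold), and lower with 1, BTB13120 (0.642-fold). The calls of BTB13120 and T5985871 (1.40-fold) were lost without the filter on low counts (adjusted p = 0.0657 and 0.0976). In RPKM, which is not tested against DMSO, H2afv with CI-994 was 13.7 against 19.85, while its junction reads lay at the DMSO level. So H2afz and H2afv, which encode nearly identical proteins, moved in opposite directions in junction reads with BRD6688 and Vorinostat.

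Hist1h2bc gave junction reads over an intron of 7554 bases (mm9 chr13:23776491-23784044), which belongs to its spliced form. The DMSO libraries had 36.76, 23.45 and 24.28 RPM. MK-1775 had 104.83 (3.75-fold, limma adjusted p = 0.000177), the ChemBridge inhibitor 102.98 (3.69-fold, 0.000313) and JFD00822 95.8 (3.43-fold, 0.00243), all far above the DMSO range. T5985871 had 57.22 (2.06-fold, 0.00246) and BRD4884 42.83 and 65.69 (1.91-fold, 0.000824). The benzenesulfonamides BTB12021, S02045 and RDR00572 had 60.61, 59.48 and 58.5 RPM, and RH01954, the fourth, had 21.7 RPM (0.791-fold, adjusted p = 0.756). At the low end, SEW06315 had 9.68 RPM (0.363-fold, adjusted p = 0.00164), Trametinib 13.06, BTBS00065 14.53 and A-443654 15.36. The calls of BTB12021, S02045, RDR00572, Trametinib, BTBS00065 and A-443654 were lost without the filter on low counts, with adjusted p from 0.0658 to 0.17. BTB13120, with 22 clustered genes called higher in RPKM, had 25.73 RPM of Hist1h2bc junction reads (0.935-fold, adjusted p = 0.78), inside the DMSO range.

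For the mean of the HDAC inhibitors, Hist1h2bc differed by 0.26 from DMSO (limma adjusted p = 0.105), which became 0.47 (0.00621) without DMSO library A and 0.34 (0.0268) without BRD4884 library A. H2afy had 161.35, 146.57 and 138.41 RPM of junction reads in DMSO. Vorinostat had 85.3 and 94.66 (0.607-fold) and CI-994 123.3 and 114.19 (0.80-fold), all below the DMSO range, and the mean of the HDAC inhibitors was lower by -0.27 (adjusted p = 0.00175). H2afy was lower with 6 compounds and higher with none, and T5758020 was the lowest of the compounds with 1 library (98.67 RPM, 0.666-fold). One of the 6, T5635931 (0.767-fold), was lost under median-of-ratios scaling (adjusted p = 0.065) and without the filter (0.0651).

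**Figure D5:**
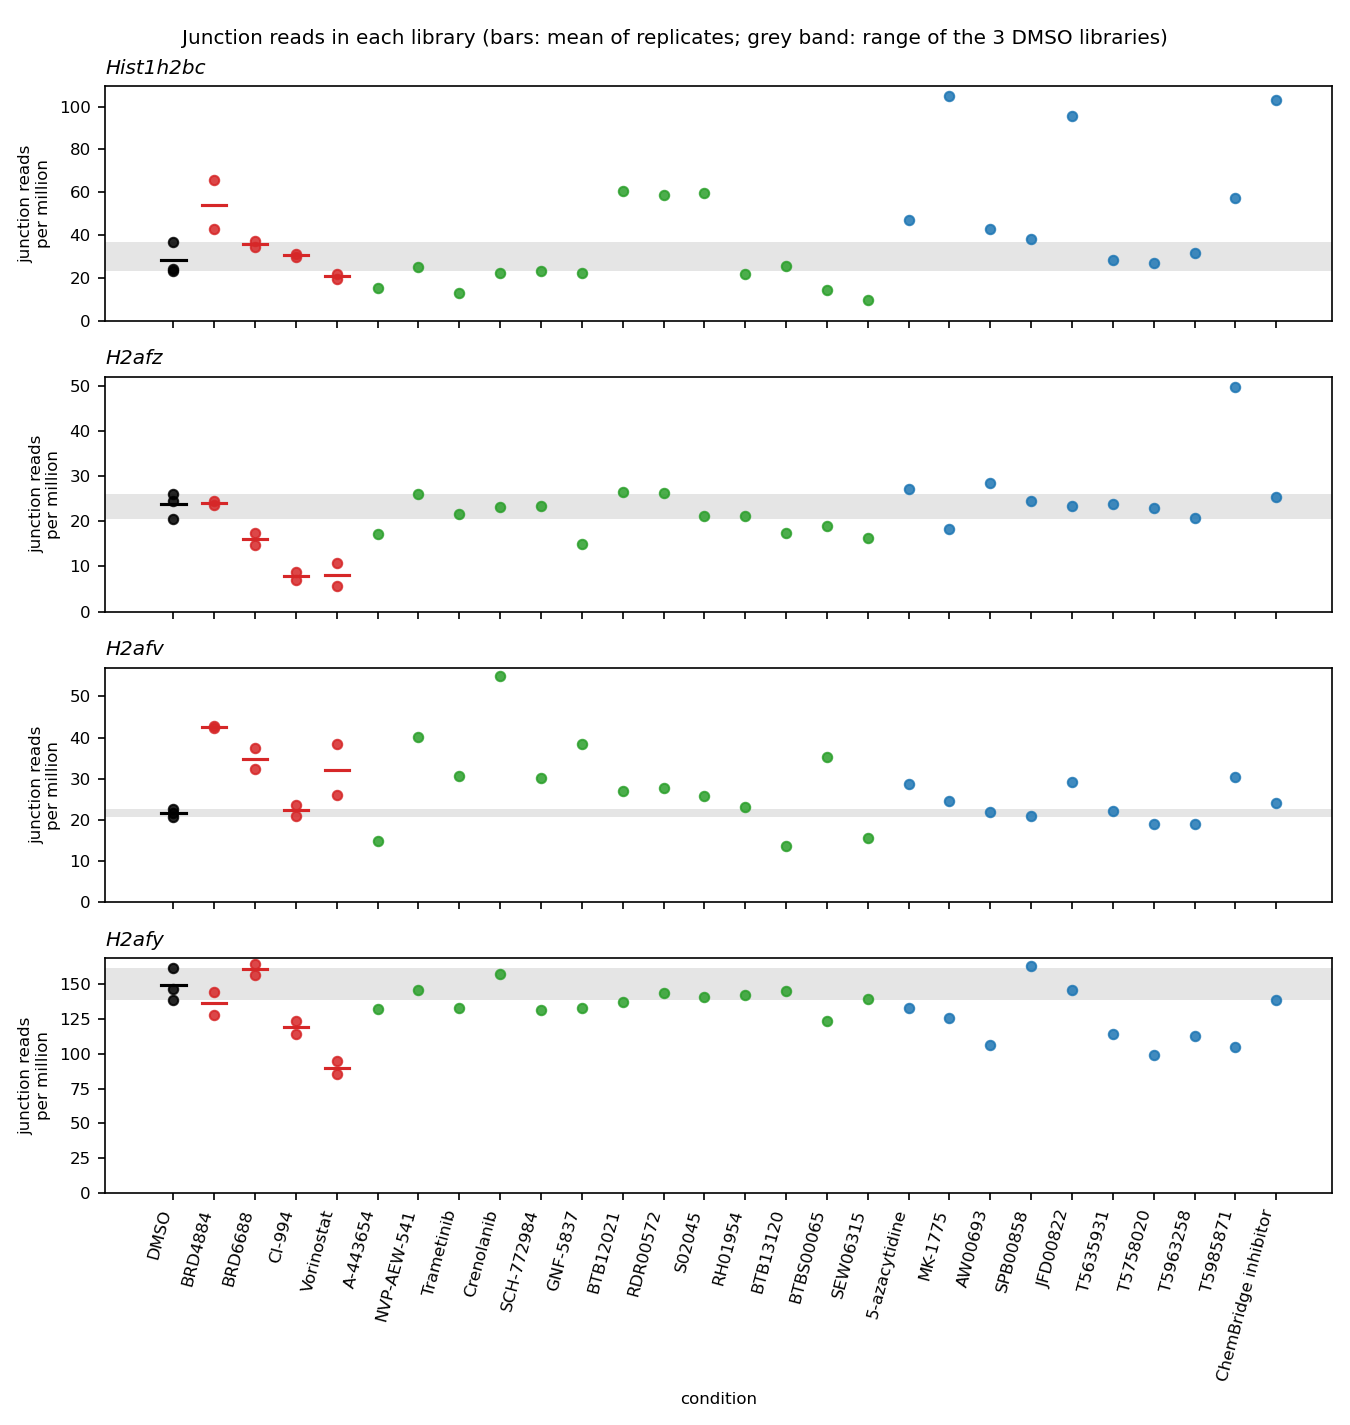
Junction reads per 1000000 in each library (RPM) for Hist1h2bc, H2afz, H2afv and H2afy (linear axes from 0), with DMSO in black, HDAC inhibitors in red, other activators in green and inhibitors in blue. Horizontal bars are means of replicates and the grey band is the range of the 3 DMSO libraries, above which Hist1h2bc stands at 104.83 with MK-1775 and below which H2afz stands at 7.06 and 8.74 with CI-994.

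Related compounds were compared where the study used them at the same concentration, in 2 pairs. BRD4884 and BRD6688, both related to CI-994, differed in 20.1% of all genes upward and 11.6% downward, but in none of the 4 histone genes past the threshold. The difference of BRD4884 from BRD6688 was 0.56 for Hist1h2bc (95% interval 0.11 to 1.01, limma adjusted p = 0.0546), 0.56 for H2afz (0.08 to 1.04, 0.0671), 0.29 for H2afv (-0.05 to 0.62, 0.164) and -0.24 for H2afy (-0.44 to -0.03, 0.0684). Hist1h2bc passed the threshold without BRD4884 library A (0.87, adjusted p = 0.0418), without DMSO library A (0.0284) or without either Vorinostat library (0.0189), and H2afy under median-of-ratios scaling (0.0448) or without either Vorinostat library (0.0166). H2afv passed it without either Vorinostat library (0.0306 and 0.0302). The benzenesulfonamides RDR00572 and RH01954, with 1 library each, differed in 0% of all genes in each direction. Their differences were 1.41 for Hist1h2bc (95% interval 0.78 to 2.04, adjusted p = 0.272), 0.31 for H2afz (-0.36 to 0.99, 0.922), 0.26 for H2afv (-0.22 to 0.73, 0.892) and 0.02 for H2afy (-0.27 to 0.30, 0.998). These intervals are not adjusted for the number of genes and leave room for differences of the sizes they cover. The p-values are adjusted over all genes within each pair.

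Splicing of the histone genes hardly differed from DMSO in the events that could be compared. Percent spliced in (PSI) was read for 41 events with coverage in at least 1 library, of which 35, in H2afy, H2afv, H2afz and Hist1h2bc, could be compared. Calls required a mean PSI that differed from DMSO by 10 or more, with the posterior probability of a difference over 0.95. This gave 1 call among 931 event and compound pairs, against 1.07% of the pairs of all events. The call was the exon of 114 bases in H2afv (mm9 chr11:6333727-6333840), which had a PSI of 73.62, 74.79 and 74.83 in the DMSO libraries and 62.60 with A-443654, where 1.46% of all events were called. The drop of 11.8 PSI rested on 258.5 inclusion and 154.5 exclusion reads in 1 library. All 34 libraries lay between 62.60 and 82.74, and with A-443654 the value was the lowest. Without DMSO library C, 6 pairs were called, and with a limit of 15 PSI none was. An H2afy intron of 3966 bases was not compared, since DMSO library C held 12.2 reads, below the limit of 15. Its value was 78.66 and 95.42 in DMSO libraries A and B. Over the 25 libraries that passed it lay between 51.53 and 100, at a median of 24.5 reads over all libraries. H2afz has an alternative 3′ splice site that shortens an exon by 69 bases, and the PSI of the shorter form was between 2.17 and 3.49 in DMSO, 7.46 and 9.71 with Vorinostat and 8.84 with T5985871, all differences under 10 PSI.

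The genes whose profile over the 28 conditions was most like that of H1f0, by Pearson correlation of log2(RPKM + 0.5) among 12403 genes, were Rab27a (r = 0.7465), H1fx (0.6408), Matn3 (0.638), Unc13d (0.6078) and Fbxo44 (0.5896). Rab27a encodes a small GTPase of secretory vesicles, and Unc13d a priming factor for vesicle release. H1fx was the only histone gene among the 5.

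Genes that work on histones or on DNA replication were lower with the HDAC inhibitors than with the other compounds, on lists of genes grouped by function. In this fit 35.6% of all genes were lower and 17.2% higher. All 25 DNA replication genes tested were lower (median -1.42 on the log2 scale, against -0.17 for all genes), among them the helicase subunit Mcm5 (-2.12), the ribonucleotide reductase subunit Rrm2 (-2.01), the licensing factor Cdc6 (-1.95) and the thymidine kinase Tk1 (-1.93). Of 29 chaperone and deposition genes, 25 were lower and none higher (median -0.75), including Set (-1.93), the CENP-A chaperone Hjurp (-1.51), Nasp (-1.38) and the FACT subunit Ssrp1 (-1.33). Of 16 genes listed for 3′-end formation and transcription of histone mRNA, 13 were lower and none higher (median -0.61), among them Cpsf2 (-1.21), Coil (-0.88) and Lsm11 (-0.85). These counts include Mtbp (-1.17), which was on the list but is no known factor of histone mRNA processing. Slbp differed by -0.71. The variant genes outside the chosen set, H2afy2 (-1.67) and Cenpa (-1.51), were lower too. Hist1h1a was higher in the same fit.

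By compound, all 25 replication genes were called lower than DMSO with CI-994 and with Vorinostat (26.1% and 22.5% of all genes), 16 with GNF-5837 (5.70%), 11 with BRD4884 (4.42%), 5 with MK-1775 (2.69%) and 4 with BRD6688 (6.75%). Pcna, the sliding clamp, was 353.02 RPKM in DMSO and 66.49 with CI-994. Slbp was 73.46 RPKM in DMSO, 30.72 with CI-994 and 131.77 with T5985871. Both compounds had a sum of clustered histone RPKM above that of DMSO. Between the other activators and the inhibitors, none of the 25 replication genes differed in the limma fit. On the other lists 3 of the 16 genes of the 3′-end list, again with Mtbp counted among the 16, and 6 of 29 chaperone genes were lower in the activators. None was higher, and the shares of all genes were 10.2% lower and 9.25% higher. Of 11 neuroblastoma and neuron markers tested, 6 were higher and 2 lower with HDAC inhibitors, beside 17.2% and 35.6% of all genes.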

How the data were processed

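PolyA+ RNA of N2A cells was sequenced after TruSeq library preparation without strand. For the deposited RPKM table, the authors quantified GENCODE vM21 transcripts with Salmon (version 0.10.2 in the submitters' processing notes), added transcripts up per gene and pooled the replicates of each condition. The deposited percent spliced in (PSI) values and the reads behind them came from vast-tools, by the authors, on mm9. Deposited columns of fold changes, p-values and FDR (edgeR) and of pooled splicing calls were not used, and 0 value columns lacked a condition.

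Ratios to DMSO were taken with 0.5 RPKM added to both values and called past 2-fold above 5 RPKM. Classes of compounds were compared with limma 3.58.1 in R 4.3.3 on log2(RPKM + 0.5) for genes with a mean of at least 1 RPKM. Junction reads of all introns of a gene were summed per library, scaled to 1000000 junction reads (RPM, prior 0.5) and fitted with limma trend for genes with a mean of at least 1 RPM, with 1 mean per condition. Benjamini-Hochberg adjustment covered all genes tested. Posterior probabilities of PSI differences came from 2000 beta draws of the reads per event. Scripts ran in Python 3.11.15 and were tested on simulated data. Precision rests on reads per gene, and RPKM carries no depth of its own.

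The histone genes and the gene lists were chosen with earlier results of these data known. All single variant genes were named. Clustered genes were named as the 10 highest in DMSO, the 10 with the largest mean ratio over HDAC inhibitors, and up to 2 called genes per other compound; other lists name at most 4 called genes, by size. Alternatives covered pseudocounts, filters, centring, scaling, rank tests, left-out libraries and a replicate block.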

Additional observations from a re-analysis of the deposited data

How the results depend on the processing

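No gene result past its threshold in the main run changed direction under any alternative run. Results short of the threshold were not checked for direction. Outside the main counts, 577 values kept their side of the threshold, 44 lost it and 20 gained it. Of all 77 histone genes, 134 gene and compound pairs were called more than 2-fold higher than DMSO and 28 lower. These became 312 and 56 with a limit of 1 RPKM and 329 and 94 with no limit. Looser limits admit genes near 0 RPKM, and no share of all genes at these limits is given, so the rise is no trait of histone genes. Without the compounds that raised Rn7sk, 82 and 17 were left, and without those that raised either small RNA, 16 and 13. These exclusions were chosen after seeing the data, and both remove compounds by construction. For HDAC inhibitors against the other compounds, 5 genes were higher in the main fit, 8 with no filter and 9 after centring, and 4 were lower. With 1 HDAC inhibitor left out, the higher genes numbered 3 (without BRD6688) to 9 (without BRD4884) and the lower genes 2 (without CI-994 or Vorinostat) to 5. For other activators against inhibitors, 1 gene was higher in the main fit, 0 with no filter, 2 by rank sum and 2 after centring, and the 8 lower genes became 1 with no filter and 4 by rank sum. For related compounds, 0 calls became 1 with median-of-ratios scaling, 0 to 1 with a library of the pair left out, 1 without DMSO library A and 3 without either Vorinostat library. The 1 splicing call became 0 at 15 PSI and 1 to 6 with a DMSO library left out. Causes were not tested.

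Samples of the same replicate letter did not deviate together (correlations of deviations -0.2314 to 0.0868), so the letters were not taken as pairs. With the replicate block, in DMSO and HDAC inhibitor libraries alone, 2 of 3 histone genes differed in junction reads, as without it, H2afz differed by -0.82 (limma adjusted p = 0.00286), and limma on PSI called 0 splicing events, against 0 in the same libraries without the block.

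RPKM is deposited once per condition, so gene levels against DMSO have no error. Concentrations differed between compounds and 23 compounds had 1 library. Reads shared between histone copies leave the level of a single clustered gene less certain than sums over a type.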
